A study of Mus musculus with 2 samples.

Results

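Mir139, Mir149, Mir330, Mir137, Mir598, Mir383, Mir488 and Mir153 are 8 miRNA genes of the mouse that are grouped here because each is linked to neurons or brain and is annotated at 1 locus, inside a longer host gene. The set is defined by gene name, and makes up 8 of the 2202 miRNA genes in the deposited tables. The tables come from microRNA sequencing of total RNA from hippocampus (labelled as a layer of it) of B6CASTF1/J males, hybrids of C57BL/6J and CAST/EiJ, at an age of 14 days. There was 1 group, for which the labels name no treatment, with 2 libraries that they number as biological replicates 1 and 2. Each label lists 3 males by number, while a single donor identifier stands on both, and how the tissue was combined is not stated. A spread between the libraries may therefore be partly technical. The tissue was bulk hippocampus, in which fewer cells of a type and less RNA per cell cannot be told apart, and no second condition was present. Replicate 1 held 3793934 counts on miRNA genes and replicate 2 held 2554997, and levels are given as counts per 1000000 of these (CPM).

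A miRNA begins as a hairpin within a longer transcript. Drosha cuts the hairpin free, Dicer trims it to a short duplex, and a strand of that duplex guides an Argonaute protein to messenger RNAs that pair with its seed, which leads to less protein from them. A miRNA gene inside an intron is usually transcribed together with its host gene, so that hosts active in neurons often carry miRNAs found in neurons. The deposited counts are per hairpin gene, so both arms of each are summed, and host messenger RNAs were not measured.

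Among the members, miR-137 is known from mouse work as a regulator of neuronal maturation and dendrite growth, and its human gene lies in a region associated with schizophrenia. miR-153 represses alpha-synuclein and genes of synaptic vesicle release. miR-139 and miR-149 are best known as growth-restraining miRNAs in human tumours, where miR-139 represses the insulin-like growth factor 1 receptor. miR-383 was studied in mouse granulosa cells of the ovary, where it raises oestradiol release.

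The mature sequences show what each gene would contribute and that no pair among them has the same seed, so they are printed before the values. RefSeq (build GRCm38.p6) matched 6 of the 8 members. Mir598 and Mir383 are named only. Each sequence runs 5′ to 3′, and the capitals mark the seed, bases 2 to 8.

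miR-139-5p: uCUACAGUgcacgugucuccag
miR-139-3p: uGGAGACGcggcccuguuggag
miR-149-5p: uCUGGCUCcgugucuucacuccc
miR-149-3p: gAGGGAGGgacgggggcggugc
miR-330-5p: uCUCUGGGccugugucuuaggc
miR-330-3p: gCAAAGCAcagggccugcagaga
miR-137-5p: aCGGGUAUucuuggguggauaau
miR-137-3p: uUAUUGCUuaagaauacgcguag
miR-488-5p: cCCAGAUAauagcacucucaa
miR-488-3p: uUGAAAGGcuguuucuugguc
miR-153-5p: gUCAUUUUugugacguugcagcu
miR-153-3p: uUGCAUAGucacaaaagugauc

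The 12 mature sequences were 21 to 23 nucleotides long and carried 12 distinct seeds. For 9 of the 12, no other mouse miRNA gene in the RefSeq table had the same seed, and none of the 12 occurred as the mature sequence of another gene. The 2 arms of Mir149 differed in base composition, with 60.9% G and C in miR-149-5p and 81.8% in miR-149-3p. Both arms of Mir137, Mir488 and Mir153 were poorer in G and C. The values were 34.8% for miR-137-3p, 36.4% for miR-153-3p, 43.5% for miR-137-5p and miR-153-5p, and 42.9% for both arms of Mir488.

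The label of a single locus was checked in the hairpins of the annotation. None of the 8 hairpins shared a stretch of 20 nucleotides, in either orientation, with a miRNA gene elsewhere, whereas 1087 of the 2202 genes and 85 of the 426 detected ones did. The longest stretch found elsewhere was 15 nucleotides for Mir149, 13 for Mir383, 12 for Mir330 and Mir488, 11 for Mir139, Mir137 and Mir598, and 10 for Mir153. Counts of the members are thus not divided among near-identical copies of the annotation. The label of neurons could not be checked in bulk tissue, and only the levels in hippocampus are described.

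Host genes were taken from GENCODE M21 on mm10, the build of the tables, and had to contain the hairpin on the same strand. All 8 members had such a host, and 6 lay in introns of a protein-coding gene. Mir139 (ENSMUSG00000065446.1, chr7:101475376-101475443) lies in intron 3 of 31 of Pde2a, which encodes a phosphodiesterase that breaks down cyclic AMP and cyclic GMP. A predicted protein-coding gene, Gm45837, spans the same intron. Mir149 (ENSMUSG00000065470.1, chr1:92850378-92850443) lies in intron 1 of 8 of Gpc1, which encodes glypican, a heparan sulfate proteoglycan of the cell surface. Mir598 (ENSMUSG00000076049.4, chr14:63727189-63727267) lies in intron 1 of 2 of Xkr6, a gene of the XK-related membrane protein family.

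Mir383 (ENSMUSG00000065457.3, chr8:38252133-38252202, minus strand) lies in intron 1 of 9 of Sgcz, the gene of zeta-sarcoglycan. Mir488 (ENSMUSG00000070103.2, chr1:158505625-158505733) lies in intron 5 of 22 of Astn1, which encodes astrotactin, a protein of neuronal migration along glia. Mir153 (ENSMUSG00000065538.1, chr12:117250817-117250885) lies in intron 19 of 22 of Ptprn2, which encodes a protein of dense-core secretory vesicles. Introns are numbered on the host transcript with the most exons.

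The other 2 members overlap exons. Mir330 (ENSMUSG00000065543.1, chr7:19181465-19181562) lies in intron 4 of 21 of Eml2, a gene of a microtubule-associated protein, and also overlaps an exon of 1 of the 8 annotated Eml2 transcripts, a non-coding one. Mir137 (ENSMUSG00000065569.2, chr3:118433857-118433929) overlaps exons of 2 of the 6 transcripts of the long non-coding gene Gm26871. A predicted miRNA gene, Gm24155, starts 792 nucleotides from Mir137 in the same host and had 0 counts in both libraries. No other member has a miRNA gene within 10 kb or a second one in its host, so none of them belongs to a cluster of expressed miRNA genes by this measure. Annotated antisense genes overlap Mir488 (Gm37679) and Mir153 (Gm5441) on the other strand, and no member had a count on its opposite strand.

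Positions within the hosts differed widely. Mir137 lies 3.53 kb from the start of its host and Mir330 5.04 kb, while Mir153 lies 765 kb from the start of Ptprn2, at 96.7% of the length of that gene. The intron that holds Mir383 is 708 kb long, the second longest among the 178 detected miRNA genes within introns of protein-coding hosts. The intron of Mir598 is 191 kb long, those of Mir149 and Mir139 are 21.2 and 19.8 kb, and those of Mir153 and Mir488 are 4.90 and 4.38 kb. The median was 20.5 kb over these 6 members, beside 5.60 kb over the 178 genes. Of the 6 members 3 lie in the first intron, beside 36 of the 178 genes (20.2%).

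**Figure D1:**
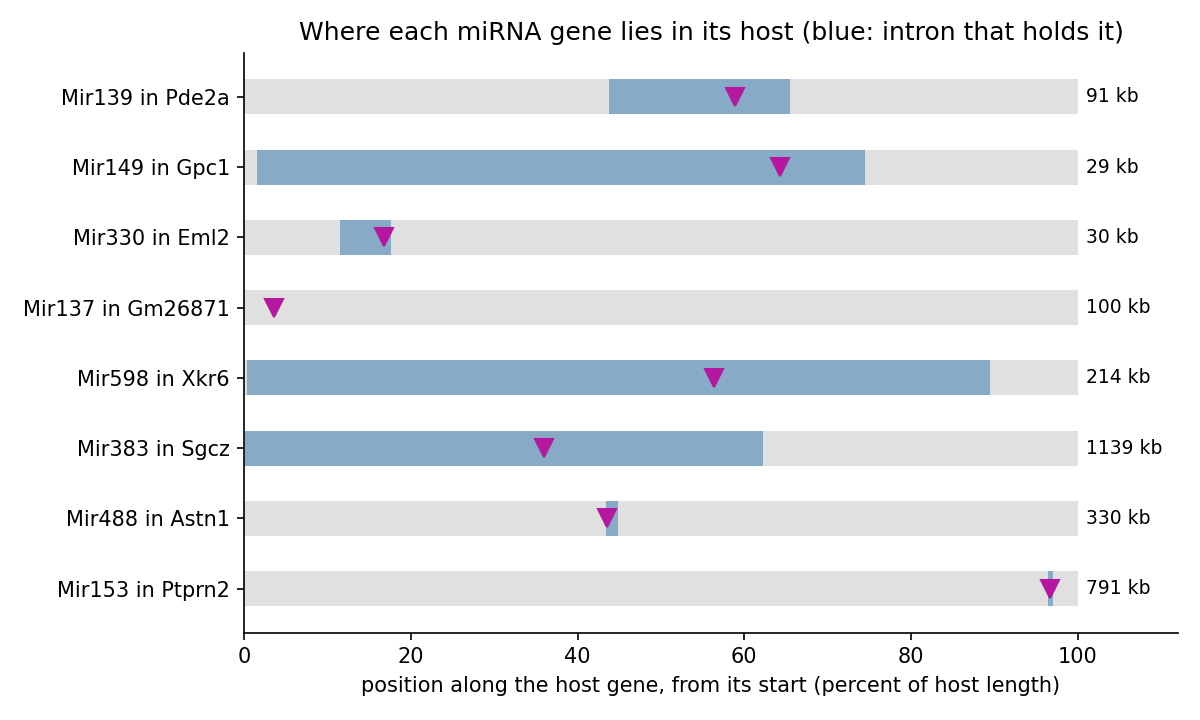
Position of each miRNA gene (triangle) along its host gene, in percent of the host length from the start of the host, with the intron that holds it in blue and the host length in kb at the right. The triangle of Mir137 lies at 3.54% and that of Mir153 at 96.7% of the host.

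All 8 members were detected, that is, had 2 CPM or more in each library, beside 426 of all 2202 genes (19.3%). Mir139 was the most abundant, with 255792 counts or 67421 CPM in replicate 1 and 194474 counts or 76115 CPM in replicate 2. Its mean was 71768 ± 6147 CPM (SD, n = 2), rank 4 of all miRNA genes, and it alone held 6.74% and 7.61% of counts in replicates 1 and 2. Mir149 had 20239.9 CPM in replicate 1 and 14223 CPM in replicate 2, a mean of 17231 ± 4255 CPM at rank 12. By counts, Mir139 was thus 4.16-fold above the next member, by 3.33-fold in replicate 1 and 5.35-fold in replicate 2.

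Mir330, Mir137, Mir598 and Mir383 formed the middle of the range. Mir330 had 6418 CPM in replicate 1 and 5621 CPM in replicate 2, a mean of 6019.8 ± 564 CPM (SD, n = 2) at rank 34. Mir137 had 3315 CPM in replicate 1 and 4885 CPM in replicate 2, a mean of 4099.9 ± 1110.3 CPM at rank 45. In replicate 2 these members were close, with Mir330 1.15-fold above Mir137, while in replicate 1 the ratio was 1.94-fold. Mir598 had 2268 CPM in replicate 1 and 2406 CPM in replicate 2, a mean of 2337 ± 97.9 CPM at rank 68. Mir383 had 1545 CPM in replicate 1 and 1244 CPM in replicate 2, a mean of 1395 ± 213 CPM at rank 92.

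Mir488 and Mir153 were the lowest members. Mir488 had 1064 counts or 280.4 CPM in replicate 1 and 833 counts or 326 CPM in replicate 2, a mean of 303 ± 32.2 CPM (SD, n = 2) at rank 160. Mir153 had 113 counts or 29.8 CPM in replicate 1, with a 95% Wilson interval of 24.8 to 35.8 CPM. In replicate 2 it had 325 counts or 127 CPM, with an interval of 114 to 142 CPM, and its mean of 78.5 ± 68.9 CPM put it at rank 220. These intervals describe counting error alone, as PCR copies were not marked by molecular tags. From Mir139 to Mir153 the mean levels spanned 914-fold, a value that depends on the library through Mir153. The span was 2264-fold in replicate 1 and 598-fold in replicate 2, a comparison added after the data were seen.

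**Figure D2:**
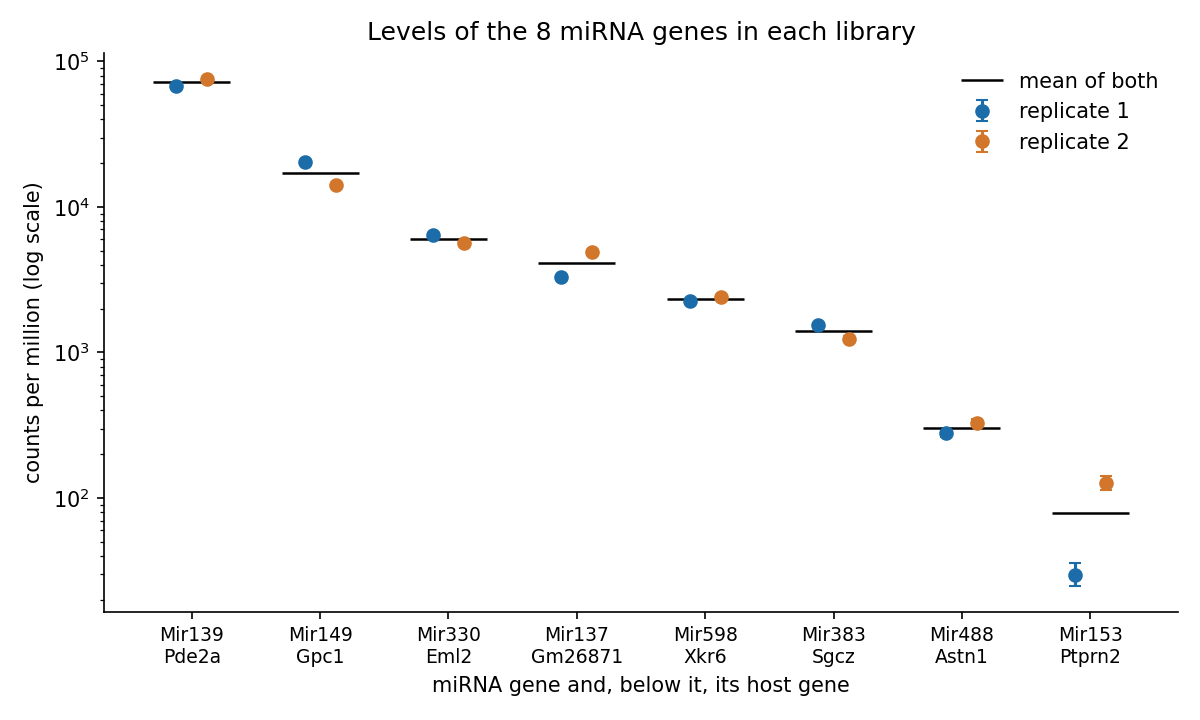
CPM of each member in replicate 1 (blue) and replicate 2 (orange) on a log axis, with 95% Wilson intervals for counting error and a black bar at the mean of the libraries. The order of the 8 genes is the same in both libraries, and the libraries stand visibly apart for Mir153, at 29.8 and 127 CPM.

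The order of the 8 members was identical in both libraries. For each of the 7 neighbouring pairs in this order, the lower library of the higher gene stood above the higher library of the lower gene. The closest pair by this measure was Mir330, lowest at 5621 CPM, and Mir137, highest at 4885 CPM. These levels are CPM per hairpin gene with both arms summed. They are not corrected for length, since the mature sequences of the 6 members in RefSeq are all 21 to 23 nucleotides long. Nor are they corrected for how well each sequence is taken up into a library. Folds between genes are thus ratios of counts, and the same order in both libraries does not test such a difference in uptake.

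Among all detected genes the members stood high, with 7 of 8 above the median of 88.3 CPM and a median of their own of 3218 CPM. The members were chosen with earlier results of these data known, so this standing is a description and not a test. Of the 8, 6 had a mean of 1000 CPM or more, beside 111 of the 426 detected genes. Their sum was 10.2% of counts in replicate 1, with a 95% Wilson interval of 10.1 to 10.2. It was 10.5% in replicate 2, with both bounds at 10.5, and on average 10.3% ± 0.243 (SD, n = 2). Without Mir139 the other 7 held 3.41% in replicate 1 and 2.88% in replicate 2. Mir139 made up 66.4% of the members' counts in replicate 1 and 72.5% in replicate 2, and Mir149 another 19.9% and 13.6%.

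**Figure D3:**
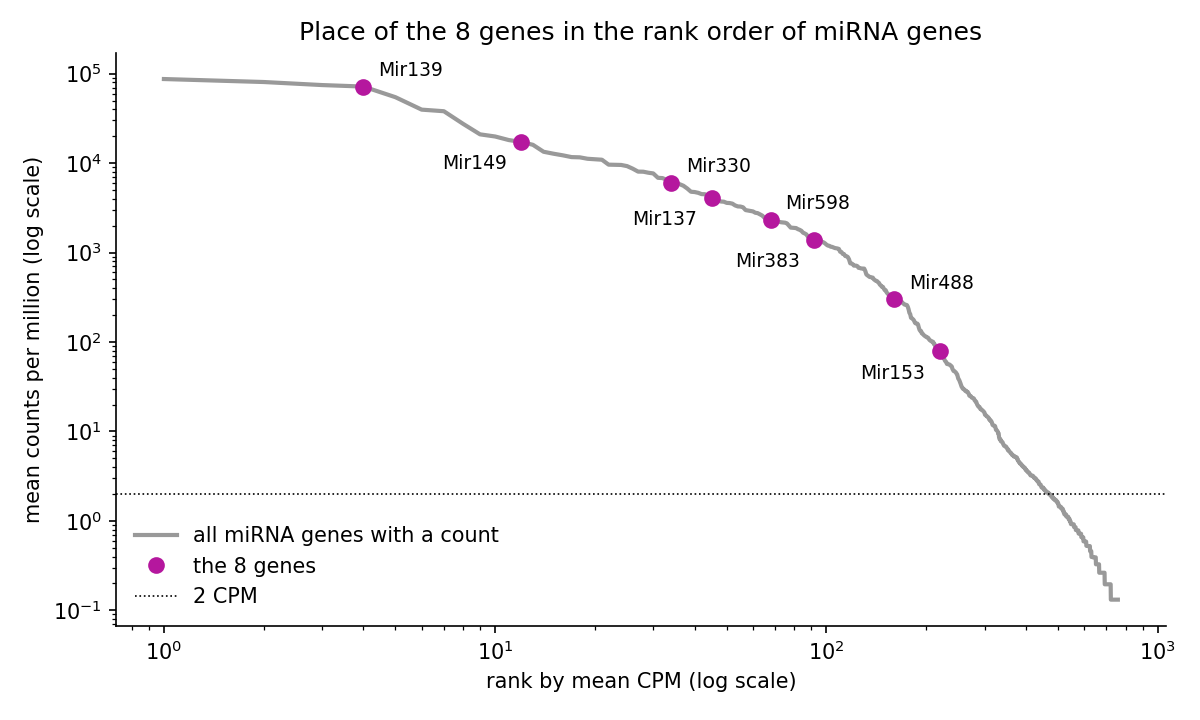
Mean CPM of every miRNA gene with a count against its rank (grey line, both axes log), with the 8 members as purple points and a dotted line at 2 CPM. The members run from rank 4 (Mir139) to rank 220 (Mir153).

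The genes directly beside a member in the ranking give a sense of scale. Mir139 stood between Mir99a, at 74586 ± 15074 CPM (SD, n = 2), and Mirlet7i, at 54567 ± 8830.1 CPM. Mir149 stood between Mir744, at 18093 ± 8413 CPM, and Mirlet7e, at 16021 ± 109 CPM. The ranges of the libraries overlapped between Mir139 and Mir99a, but Mir139 stood above Mirlet7i in both. Those of Mir149 overlapped with Mir744 and with Mirlet7e. Mir330 lay between Mir409 and Mir379, and Mir137 between Mir138-1, which shares a stretch with another gene, and Mir676. Mir598 lay between Mir667 and Mir434, and Mir383 between Mir1839 and Mir540. Mir488 lay between Mir467e, which also shares a stretch, and Mir301, which had 22.9 CPM in replicate 1 and 572 CPM in replicate 2. Mir153 lay between Mir3093 at 79.5 ± 2.79 CPM and Mir1198 at 73.1 ± 18.1 CPM by its mean alone. In replicate 1 Mir153 was at rank 257 with 29.8 CPM, below Mir3093 at 81.4 CPM and Mir1198 at 85.9 CPM. In replicate 2 it was at rank 195 with 127 CPM, above Mir3093 at 77.5 CPM and Mir1198 at 60.3 CPM.

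Among miRNA genes of the same kind of place, Mir139 was the highest. Of the 738 annotated miRNA genes within introns of protein-coding hosts 178 were detected, with a median of 39.99 CPM and quartiles of 6.82 and 494 CPM. By mean CPM Mir139 ranked 1, Mir149 4, Mir598 22, Mir383 29, Mir488 54 and Mir153 79 among these 178, so that all 6 intronic members stood above the median by their mean. In each library alone, Mir153 was below the median of the 178 genes in replicate 1, at 29.8 beside 31.9 CPM, and above it in replicate 2, at 127 beside 34.1 CPM. The genes ranked 2 and 3 were Mirlet7g in Wdr82, at 38031 ± 8846 CPM (SD, n = 2), and Mir744 in Map2k4. Mir330 is placed with the 54 detected genes that overlap an exon of a protein-coding host, with a median of 16.8 CPM. Mir137 is placed with the 44 that overlap an exon of a non-coding host, with a median of 629 CPM.

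A number of other neuron-linked miRNAs are annotated at several loci. The list of miR-124, miR-9, miR-128, miR-129, miR-138 and miR-218 genes had 14 members, each sharing a stretch of 20 nucleotides with another miRNA gene. Of these 10 were detected, beside 8 of 8 single-locus members, and the list held 1.48% of counts in replicate 1 and 1.72% in replicate 2. Its median over all 14 genes, detected or not, was 97.2 CPM, which is not on the same base as a median of detected genes. The highest genes of the list were Mir128-1 in R3hdm1 at 5824 ± 2065 CPM (SD, n = 2), Mir138-1 at 4260.1 ± 1173 CPM and Mir128-2 in Arpp21 at 1902 ± 596 CPM. Reads that mapped to several places were given to no gene and made up 26.3% of reads in replicate 1 and 37.5% in replicate 2, so levels of the multi-copy genes are uncertain and the lists are not on equal terms. The 3 genes linked to neuronal activity were Mir132 at 11607 ± 8004 CPM, Mir134 at 1157 ± 248 CPM and Mir212 at 481 ± 13.8 CPM, and none of them shared such a stretch.

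A further list held 13 genes inside hosts such as the serotonin receptor Htr2c, the glutamate receptor genes Grid1 and Grm8, Gabre, Fgf13 and Tenm4, with Klhl3 and Arrb1, which encode neither receptors nor channels. Of the 13 genes 11 were detected, with a median of 48.7 CPM over the list, and together they held 0.878% of counts in replicate 1 and 0.586% in replicate 2. The highest were Mir874 in Klhl3 at 3723 ± 2113 CPM (SD, n = 2), Mir346 in Grid1 at 1308 ± 432 CPM and Mir708 in Tenm4 at 1190.1 ± 397 CPM. Mir708 shares a stretch with another miRNA gene and is uncertain. Mir383 and Mir346 had overlapping ranges, while the 5 members above Mir383 were higher than Mir346 in both libraries.

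**Figure D4:**
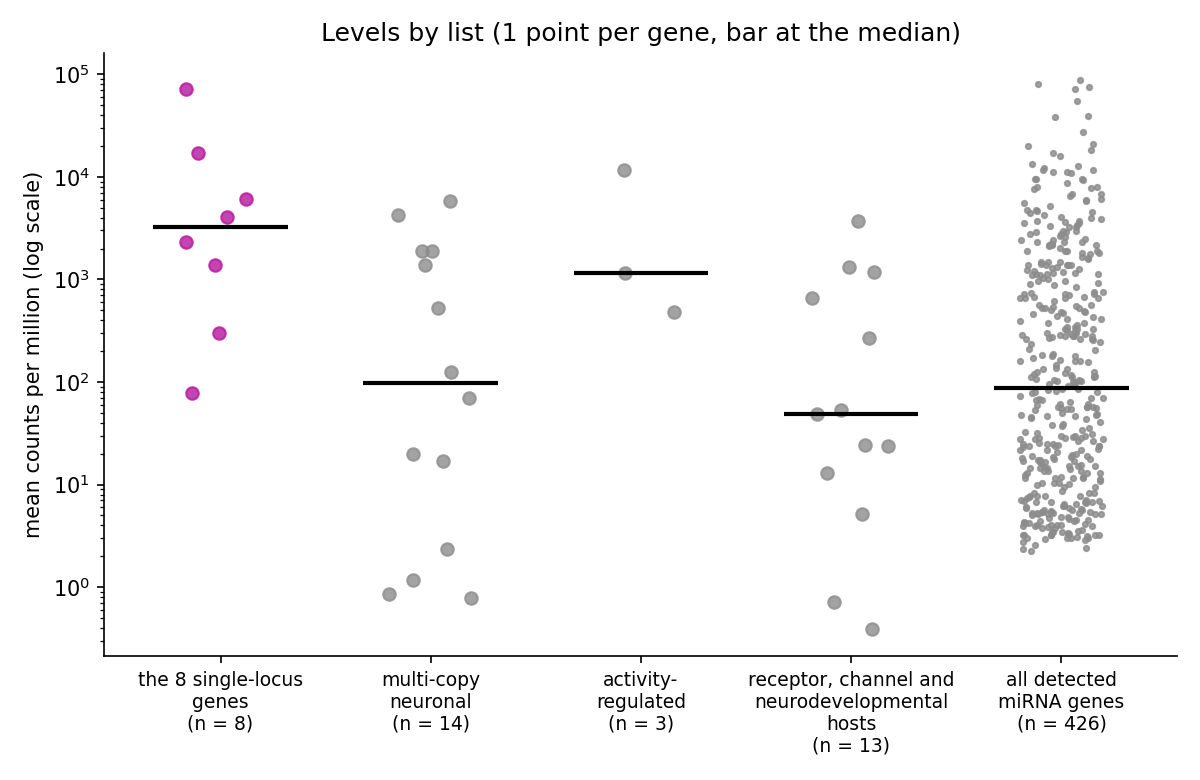
Mean CPM on a log axis, 1 point per gene and a bar at the median, for the 8 members, the lists of multi-copy neuronal, activity-regulated and receptor, channel and neurodevelopmental hosts, and all 426 detected genes. The medians are 3218 CPM for the members, 97.2 CPM for all 14 multi-copy genes and 88.3 CPM for all detected genes. Genes listed but not detected are drawn as well and count in the medians of the lists. These medians and that of all detected genes thus have unlike bases. Members and lists were chosen with earlier results of these data known.

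Where a member shares a seed with other genes, it held most of their counts. miR-330-5p has the seed of miR-326-3p, whose gene Mir326 lies in an intron of Arrb1, the gene of beta-arrestin 1. To compare them with the shared seed in capitals, the sequences are given below each other.

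miR-330-5p: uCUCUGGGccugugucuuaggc
miR-326-3p: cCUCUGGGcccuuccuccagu

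Mir326 had 569 CPM in replicate 1 and 757 CPM in replicate 2, a mean of 663 ± 133 CPM (SD, n = 2). Mir330 thus held 91.9% of the counts of this pair in replicate 1 and 88.1% in replicate 2. Since both arms are summed, the share of counts from the arms with this seed is not known. The seed of miR-330-3p also occurs in Mir6240, at 14.4 ± 3.16 CPM. The seed of miR-149-3p occurs in 4 other genes, of which Mir1943, at 2.42 ± 0.446 CPM, was detected, and Mir149 held 99.98% of the counts of these 5 genes in replicate 1 and 99.95% in replicate 2. Both arms are summed here too, so these percentages do not give the share of counts that carry the seed.

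The libraries were then compared with each other. Of the members Mir149, Mir330 and Mir383 were higher in replicate 1, and Mir139, Mir137, Mir598, Mir488 and Mir153 in replicate 2. By log2(CPM + 0.5), replicate 1 over replicate 2, the difference was 0.51 for Mir149, 0.31 for Mir383 and 0.19 for Mir330. It was -0.09 for Mir598, -0.17 for Mir139, -0.22 for Mir488 and -0.56 for Mir137. Mir153 stood apart at -2.08, or 4.22-fold higher in replicate 2, and only 9 of 328 genes, all those averaging at least 10 CPM, were further apart in either direction. The median size of the difference was 0.26 over the 8 members and 0.42 over the 328 genes, and 5 of 8 members were below 0.42.

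In a two-sided exact binomial test of counting error, adjusted over all 507 genes with at least 10 counts in sum, all 8 members differed between the libraries, beside 52.1% of all genes tested. The adjusted p of this exact test was 3.29e-46 for Mir153, 0.001004 for Mir598 and 0.00293 for Mir488. The median level was 3218 CPM over the members and 34.3 CPM over the genes tested. The exact test calls smaller differences where counts are higher, so 52.1% is not a background at like level. Of the 328 genes averaging at least 10 CPM, 236 were called, and their median of 287 CPM was still below that of the members. Of the 8, 3 were called higher in replicate 1, beside 25.2% of all genes, and 5 higher in replicate 2, beside 26.8%. With totals scaled by TMM, Mir598 no longer passed, at a log2 difference of -0.05.

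This contrast is between a pair of libraries of the same condition, and the binomial test takes no account of the spread between samples. With a negative binomial exact test at the common dispersion of edgeR, a coefficient of variation of 0.378, 0 of 8 members passed, beside 0.394% of all genes. At an unadjusted p under 0.05 that test had 1 member, Mir153 (unadjusted p = 0.0118, adjusted p = 0.572 by the edgeR exact test), beside 23 of 507 genes. With the median dispersion of DESeq2 in place of that of edgeR, 0 of 8 members and 2 of 507 genes passed at an adjusted p under 0.05. Both dispersions were estimated from the same libraries that were then compared. The differences under test thus went into the spread they were tested against. The result of 0 of 8 is therefore no independent check that the differences lie within the spread between samples.

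**Figure D5:**
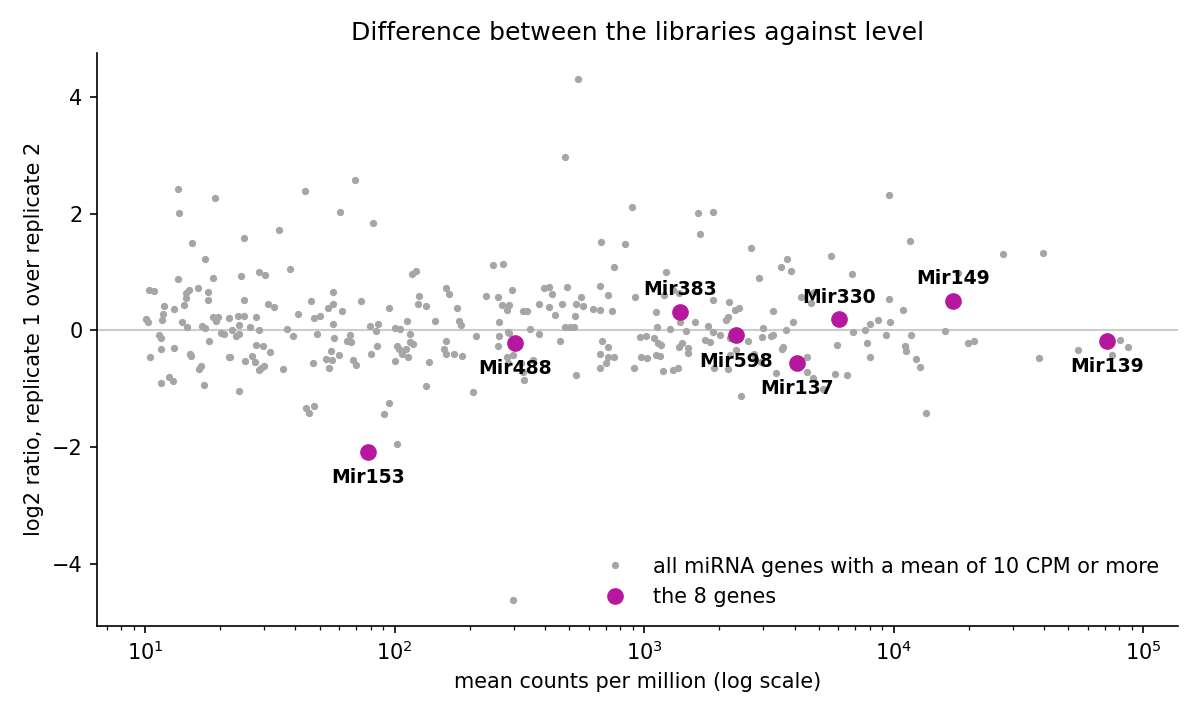
Log2 ratio of replicate 1 over replicate 2 against mean CPM (log axis) for the 328 genes averaging at least 10 CPM (grey), with the 8 members in purple. Mir153 lies at -2.08, and the other 7 members lie between -0.56 and 0.51.

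Markers of other cell types were summed in each library. The 3 oligodendrocyte genes summed to 4059.6 CPM in replicate 1 and 1247 CPM in replicate 2, with 3 of 3 detected. Mir219a-2 and Mir338 were higher in replicate 1, and Mir219a-1 was close, at 16.9 CPM in replicate 1 and 19.2 CPM in replicate 2. The 5 genes of choroid plexus and ciliated epithelium summed to 1979 CPM in replicate 1 and 929.9 CPM in replicate 2, with 4 of 5 detected. Mir34c differed most, with 857 CPM in replicate 1 and 109 CPM in replicate 2. In the same order, Mir204 had 742.5 and 581 CPM and Mir449a 363 and 225 CPM. Mir34b was close, at 14.8 and 13.3 CPM. The 3 erythroid genes, all detected, summed to 75.4 CPM in replicate 1 and 192 CPM in replicate 2. Mir451a carried this sum, with 41.9 CPM in replicate 1 and 162 CPM in replicate 2, while Mir486 went the other way, with 24.5 CPM in replicate 1 and 12.9 CPM in replicate 2. The microglial and myeloid list (4 of 4 detected) summed to 1743 CPM in replicate 1 and 1640.3 CPM in replicate 2. Mir150, its largest gene, went the other way, with 981 CPM in replicate 1 and 1047 CPM in replicate 2. The endothelial and mural list (3 of 3 detected) summed to 14332 CPM in replicate 1 and 11076 CPM in replicate 2. Mir126a carried this sum, with 11308 CPM in replicate 1 and 7829 CPM in replicate 2. Mir143 went the other way, with 2833 CPM in replicate 1 and 3069 CPM in replicate 2. The 10 neuron markers, of multi-copy genes, summed to 12878 CPM in replicate 1 and 15054 CPM in replicate 2 with 6 detected. Mir124a-3 was at 0 counts in replicate 1. All 10 share a stretch with another miRNA gene, so reads of theirs that mapped to several places are absent from these values. Such reads made up 26.3% of all reads in replicate 1 and 37.5% in replicate 2, and the neuron sums are uncertain. Of the neuron markers called in the exact binomial test, 4 were higher in replicate 2. The 1 called higher in replicate 1 was Mir138-1, with 5090 CPM in replicate 1 and 3431 CPM in replicate 2. No marker was at 0 in both libraries. In the exact binomial test, which called 52.1% of all genes, 2 of 3 oligodendrocyte, 3 of 4 choroid and ciliated, 3 of 3 erythroid, 3 of 4 microglial and myeloid, 2 of 3 endothelial and mural and 5 of 7 neuron markers tested were called. The lists are short, and no difference of a marker list between the libraries was tested. Replicate 1 also had more unmapped reads (41.3%) than replicate 2 (20.7%). The part of cell makeup or read quality in the members' differences was not tested.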

How the data were processed

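Small RNA libraries, with a size range under 30 in the labels, were counted by the authors per annotated miRNA gene on mm10 with GENCODE M21, per the text deposited with each table. The tables as deposited hold raw counts, not normalized. Aligner, counter and trimming were not given in the sources used here. Each table has 3 count columns. The larger stranded column was taken as the strand of the gene, and 4 rows of reads given to no gene (72.5% of reads in replicate 1, 64.7% in replicate 2) stayed out of totals and tests. No member had a count on the opposite strand. A count was worth 0.264 CPM in replicate 1 and 0.391 CPM in replicate 2.

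All 2202 identifiers matched GENCODE M21. The members and lists were chosen with earlier results of these data known. Besides members, the text names the genes next to a member in rank, up to 3 of the highest genes of each list, detected genes that share a seed, and cell type markers. The quasi-likelihood test of edgeR cannot contrast 2 libraries of 1 group, so an exact binomial test with Benjamini-Hochberg adjustment at 0.05 was used. It was checked on simulated counts that held counting error alone. That check cannot show how the test behaves where libraries also differ by a spread between samples. Mean and SD are over 2 libraries. Tools were Python 3.11.15, scipy 1.17.1, R 4.3.3, edgeR 4.0.16, DESeq2 1.42.0 and ViennaRNA 2.7.2.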

Additional observations from a re-analysis of the deposited data

How the results depend on the processing

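Detection of the 8 members held at 1, 5 and 10 CPM and in each library alone, and 0 of 8 shared a stretch at 18, 20 or 22 nucleotides. The members' share of counts, 10.3%, was 3.25% of all reads, 11.5% without genes that share a stretch and 11.0% in the column that ignored strand. In each library alone the share was 10.2% and 10.5%. Set against a total without the 10 most abundant genes, the members' counts came to 21.3%. That value is not a share, since Mir139, at rank 4, was left out of the total but kept among the members' counts. All 8 members were called in the exact binomial test with DESeq2 size factors, without a count filter, at 50 counts or more and in the column that ignored strand, and 7 with totals scaled by TMM. With a negative binomial spread, 0 of 8 were called at the edgeR dispersion and 0 at that of DESeq2, both estimated from these same libraries. No member's log2 difference changed sign under 2 other pseudocounts or 3 other scalings. With 2 libraries of 1 group, every spread rests on 1 difference per gene, and reads that mapped to several places are absent from all levels.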

Other observations

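The minimum free energy from ViennaRNA had a median of -4.31 kcal/mol per 10 nucleotides over the 8 members and -4.33 over the 426 detected genes, whose quartiles were -4.84 and -3.83. Mir149 (-5.56) and Mir139 (-5.24), the most abundant members, had the most stable hairpins per length of the 8, and Mir488 (-3.55) the least stable. Mir153, the least abundant member, came next after Mir139, at -4.46, so the order by stability was not the order by level.

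The content of G and C in the hairpin was 68.2% for Mir149, 58.2% for Mir330 and 50% for Mir383, the members that were higher in replicate 1. Among those higher in replicate 2 it was 58.8% for Mir139, 53.2% for Mir598, 45.2% for Mir137, 42.2% for Mir488 and 42.03% for Mir153. Across the 426 detected genes, which share the same libraries and are not independent, the Spearman correlation of this content with the log2 difference of replicate 1 over replicate 2 was 0.0994 and the Pearson correlation 0.0766, too weak to count as a finding.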
